A study of Mus musculus with 4 samples.

Results

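RNA polymerase II (Pol II) was examined at the major histone gene cluster of mouse chromosome 13, taken as the window from 21000001 to 24000000 of build mm8. The window was divided into 3000 bins of 1 kb, and the peak bins were chosen by their sequence tags summed over the 4 libraries, with at least 40 required, which gave 86. Elsewhere in the genome 17146 bins reached the same number of tags, so the window held 86 of 17232. The remaining 2914 bins of the window served as local background. Chromatin was immunoprecipitated for total Pol II, through the N-terminal part of its largest subunit Rpb1, and the recovered DNA was sequenced (ChIP-seq). The cells were V6.5 mouse embryonic stem cells of mixed C57BL/6 and 129 background. For about 4 days they expressed a hairpin RNA, which in the library called shSpt4 targeted Spt4, for shSpt5 targeted Spt5, for shNelfE targeted NelfE and for shControl was a control sequence. Every culture, the control included, received the Cdk9 inhibitor flavopiridol at 1 µM for 1 h before crosslinking. The 3 knockdown libraries came from 1 flow cell and from cells kept for 2 passages without feeder cells. For the control, the flow cell was a different one and the cells had 1 passage without feeders.

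Since each group was 1 library, the differences have no replicate check, and in every ratio to the control the effects of knockdown, flow cell and passage cannot be told apart. The targeted genes' RNA or protein was not measured in these libraries, and the stem cell label was not checked against markers. The libraries held 2646944 (shSpt4), 3116313 (shSpt5), 2938052 (shNelfE) and 3170090 (shControl) kept tags, 1 for each position and strand. Of these, 8124, 9405, 8794 and 8475 lay in the window. Normalised tags are tags per 1000000 kept tags of a library. The 95% intervals of ratios come from the exact binomial distribution of tags between 2 libraries and cover counting error only.

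Replication-dependent histone genes encode the linker histone H1 and the core histones H2A, H2B, H3 and H4 and lie in clusters of short genes without introns. They are transcribed mainly in S phase, and their messenger RNAs end in a stem-loop instead of a poly(A) tail. The knocked-down proteins belong to the elongation factors DSIF (Spt4 with Spt5) and NELF (NelfE), which hold newly started Pol II near the promoter until Cdk9 releases it. NELF also takes part in forming the 3′ ends of histone messenger RNAs.

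In the RefSeq table of build GRCm38.p6, chromosome 13 carried 56 histone genes in the cluster, 2 of them pseudogenes. By family, 6 are listed under H1, 15 under H2A with both pseudogenes, 14 under H2B, 9 under H3 and 11 under H4, and 1 is listed as H4bc24. Between them the table lists 77 transfer RNA genes and 75 genes and pseudogenes of the Vmn1r family of vomeronasal receptors. That build differs from mm8, so no bin was given a gene name. A RefSeq promoter entry existed for 51 of the 56 genes, in 52 entries. Within the 250 bases before the start, CCAAT on either strand occurred in 44 of 52 entries (84.6%), against 33.8% of 32851 promoters of the table. All entries for H1, H2A, H2B and H3 held it, and 3 of 11 for H4 did. TATAAA on the gene's strand occurred in 21 of 52 (40.4%, against 7.59%). The octamer ATTTGCAT on either strand occurred in 11 of 52 (21.2%, against 1.60%), 5 of them before H2A genes and 6 before H2B genes.

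The cluster contains promoters that are copies of each other, which bears on which reads can be placed. The following pairs are shown because they are the longest shared promoters on opposite strands, H2bc23 with H4bc24 over all 250 bases and H4c17 with H4c18 over 249. Each line holds the 120 bases that end at the start of transcription, from RefSeq on GRCm38.p6. These coordinates cannot be set beside the mm8 coordinates of the bins. Capitals mark CCAAT or its reverse complement ATTGG.
H2bc23, minus strand, chr13:21810200-21810319: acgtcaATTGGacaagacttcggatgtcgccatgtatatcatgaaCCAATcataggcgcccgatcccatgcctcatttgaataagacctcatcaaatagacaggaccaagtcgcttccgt
H4bc24, plus strand, chr13:21833623-21833742: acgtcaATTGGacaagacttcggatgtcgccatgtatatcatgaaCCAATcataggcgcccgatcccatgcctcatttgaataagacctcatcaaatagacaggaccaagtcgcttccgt
H4c17, plus strand, chr13:21811626-21811745: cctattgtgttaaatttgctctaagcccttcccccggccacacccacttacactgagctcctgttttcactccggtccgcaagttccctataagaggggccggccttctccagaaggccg
H4c18, minus strand, chr13:21832198-21832317: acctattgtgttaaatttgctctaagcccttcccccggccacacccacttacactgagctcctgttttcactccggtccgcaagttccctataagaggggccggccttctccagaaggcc
The H2bc23 and H4bc24 sequences are identical and carry CCAAT in both orientations. The H4c17 and H4c18 sequences are the same run displaced by 1 base and carry neither. H2ac23 and H2ac24 share 150 bases and H4c11 and H4c12 share 72, and a read that falls wholly within such a copy has at least 2 equally good places. Shorter runs are shared beyond pairs, as H4c17 and H4c18 each share 38 bases with H4c9.

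Pol II tags in the window were concentrated in a few crowded stretches. The 86 peak bins formed 43 runs of adjacent bins, 17 of them single bins, and fell into 7 stretches separated by gaps of more than 75 kb. The stretches from 21723001 to 21840000 (19 peak bins), 22042001 to 22059000 (9) and 23538001 to 23772000 (44) are called dense here, a choice made after seeing the data. They covered 368 kb and held 72 peak bins and 93.4% of the tags in peak bins. The other 14 peak bins were spread over 4 stretches and lay in 13 runs, 12 of them single bins.

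Summed tags per peak bin ran from 41 to 1641 with a median of 185.5, against a median of 2 in the background bins. Dense bins had a median of 213 tags and the other peak bins 94.5. Just inside the threshold lay the bins at 23440001 (41 tags) and 21741001 (42), and just outside it 23552001 (39), 23703001 (38) and 21728001 (36). These sums chose the bins and are a description. Local background was 0.330 normalised tags per kb for shSpt4, 0.357 for shSpt5, 0.311 for shNelfE and 0.274 for shControl, and the mean over peak bins was 24.5, 23.0, 24.3 and 21.8. The plot of normalised tags along the window shows the same crowded stretches in all 4 libraries.

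**Figure D1:**
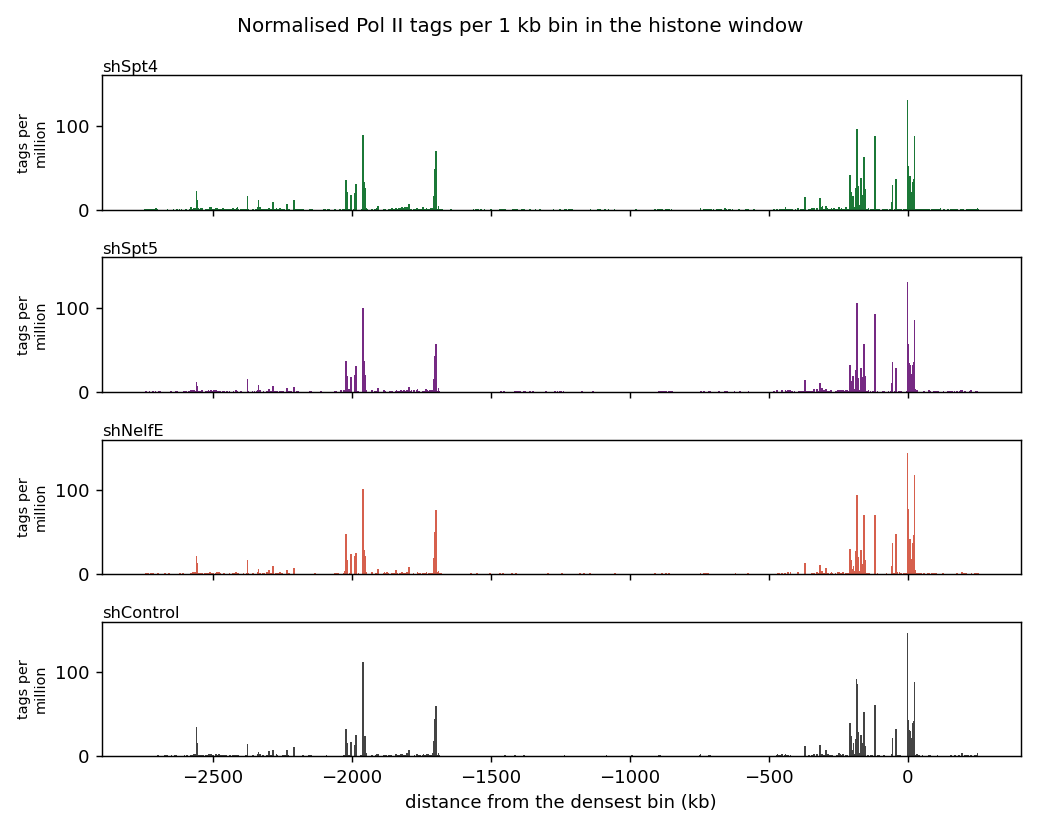
Normalised tags (tags per 1000000 kept tags) in each 1 kb bin of the window, 1 panel per library, against the distance in kb from the densest bin. The bins that stand out lie in the same places in the 4 libraries, and the densest bin reached 130 for shSpt4, 131 for shSpt5, 144 for shNelfE and 146 for shControl.

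Scaled by all kept tags, Pol II at the histone cluster was not below the control in the knockdown libraries, whereas most other bins of the genome with at least 40 tags were. Summed over the 86 peak bins, normalised tags were 2107 for shSpt4, 1979 for shSpt5, 2087 for shNelfE and 1876 for shControl. The ratio to the control was 1.12 (95% interval 1.08 to 1.16) for shSpt4, 1.05 (1.02 to 1.09) for shSpt5 and 1.11 (1.07 to 1.15) for shNelfE. Over the 17146 bins elsewhere it was 0.827 (0.824 to 0.830), 0.607 (0.605 to 0.609) and 0.765 (0.762 to 0.768). The gap between the window and the rest does not depend on the scaling, since 1 factor per library applies to both. The window's bins held 0.188% of the kept tags for shControl and 0.198 to 0.211% in the knockdown libraries, while the bins elsewhere went from 21.8% for shControl to 13.2% for shSpt5. Because the sum that chose the bins includes both libraries of each ratio, bins were also chosen in the 2 libraries outside the pair. The ratios were then 1.12, 1.05 and 1.11. Those 2 libraries are both knockdown libraries, so this choice can still favour bins that are high in the knockdown libraries.

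Whether the window lay above or below the control depended on the scaling. The local background was itself higher in the knockdown libraries, at 1.21 times the control for shSpt4, 1.30 for shSpt5 and 1.14 for shNelfE, and 809 windows of 1 Mb without a bin at the threshold gave 1.28, 1.47 and 1.24. Scaled by those empty windows the peak bins stood at 0.879, 0.717 and 0.899 of the control. Scaled by the median bin of the genome they stood at 1.38, 1.76 and 1.45. The weakest of these results is shSpt5 by total tags, which was 0.991 (0.961 to 1.02) when repeated positions were kept.

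**Figure D2:**
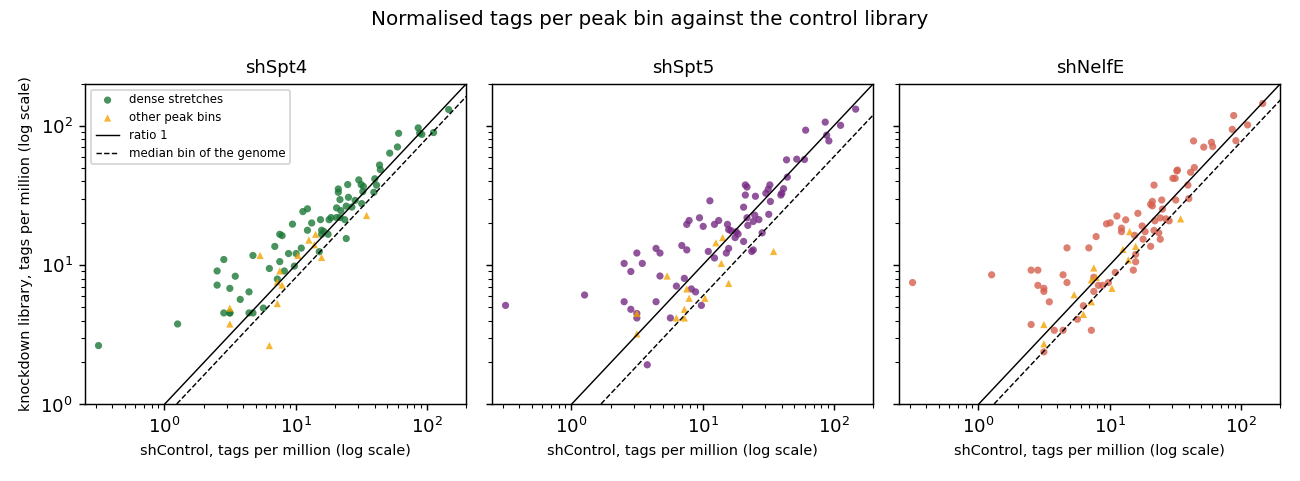
Normalised tags of each of the 86 peak bins in a knockdown library (vertical, log scale) against shControl (horizontal, log scale), with circles for the 72 bins of the dense stretches and triangles for the other 14. Solid lines mark a ratio of 1 and dashed lines the median ratio of the bins elsewhere (0.811 for shSpt4, 0.599 for shSpt5 and 0.765 for shNelfE), and most circles lie above the dashed lines.

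The dense stretches held most of the tags behind these ratios. Their ratio to the control was 1.14 for shSpt4 (1.09 to 1.18), 1.08 for shSpt5 (1.04 to 1.12) and 1.13 for shNelfE (1.09 to 1.18). The other 14 peak bins of the window stood at 0.960 (0.837 to 1.10), 0.721 (0.625 to 0.831) and 0.876 (0.764 to 1.00). The intervals of dense and other bins are apart for shSpt5 and shNelfE and overlap for shSpt4. Without the 2 bins of the leftmost stretch, the other 12 stood at 1.11 (0.940 to 1.30), 0.888 (0.752 to 1.05) and 0.969 (0.822 to 1.14), and all 3 intervals overlap those of the dense stretches. The ratios of the 3 dense stretches ran from 1.11 to 1.23 for shSpt4, 1.05 to 1.15 for shSpt5 and 1.11 to 1.30 for shNelfE. The stretch at 22042001 was highest in shSpt4 and shNelfE, at 1.23 (1.09 to 1.39) and 1.30 (1.16 to 1.46). The leftmost stretch, 21187001 to 21189000, went the other way, at 0.674 (0.514 to 0.878), 0.394 (0.289 to 0.532) and 0.695 (0.537 to 0.895).

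The dense bins were also set beside bins elsewhere of the same tag class. The 19 dense bins of 40 to 99 tags stood at 1.56 (1.32 to 1.85) for shSpt4, 1.65 (1.41 to 1.94) for shSpt5 and 1.46 (1.24 to 1.72) for shNelfE. The 23 dense bins of 300 tags or more stood at 1.08 (1.03 to 1.13), 1.04 (0.992 to 1.09) and 1.14 (1.09 to 1.20). Bins elsewhere with 40 to 99 tags had 0.788, 0.604 and 0.781, and those with 300 or more had 0.891, 0.633 and 0.784, below the dense bins of the same class in every library. The classes use the same summed tags that chose the bins, so bins were also classed by the 2 libraries outside each pair. Those are both knockdown libraries, so this classing can still favour bins that are high in the knockdown libraries. Dense bins with 20 to 49 tags there stood at 1.36 (1.14 to 1.62), 1.51 (1.28 to 1.79) and 1.14 (0.943 to 1.37), and those with 150 or more at 1.09 (1.04 to 1.14), 1.04 (0.992 to 1.09) and 1.16 (1.11 to 1.21). For shSpt4 and shSpt5 the thinner bins thus had the higher ratio under both classings, and for shNelfE they did not under the second. Elsewhere the thinner class had 0.788, 0.5996 and 0.770 and the denser 0.912, 0.638 and 0.806. Among 281 tiles of 3 Mb with at least 20 such bins, the window ranked 5th from the highest for shSpt4 and 2nd for shSpt5 and shNelfE. The 95th percentile of the tiles was 0.994, 0.779 and 0.887.

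Single bins were called higher at a ratio to the control of at least 2 with an interval above 1, and lower at a ratio of at most 0.5 with an interval below 1. In shSpt4, 12 of the 86 bins were higher and 0 lower, where the bins elsewhere were called higher in 1.3% and lower in 10.8%. In shSpt5, 12 bins were higher and 2 lower, against 0.904% and 31.8% elsewhere. In shNelfE, 8 were higher and 0 lower, against 0.537% and 8.21%. The calls made up 14.0, 14.0 and 9.30% of the window's bins for the higher direction. For 65, 57 and 60 of the 86 bins the interval held 1, so most single bins could not be told from the control at this depth. Scaled by the 1 Mb windows, 2, 5 and 5 bins were higher and 2, 15 and 3 lower. The shares elsewhere under that scaling are not given, so these counts are not set against the genome.

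The higher calls fell mostly on the sides of peaks. In each run the bin with most tags is called the top and the others shoulders, 43 of each. Of the 16 bins called higher in at least 1 knockdown library, 13 were shoulders and 3 were tops. Shoulders were called higher in 9 of 43 for shSpt4, 11 for shSpt5 and 8 for shNelfE, against 1.92, 1.33 and 0.85% of shoulders elsewhere. Tops elsewhere were called higher in 0.976, 0.684 and 0.373%. The comparisons share the control library, so a low count there enters all 3 ratios. The tags that chose the bins include those of the knockdown libraries, so a thin shoulder can be a member only because it is high there.

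The 6 bins called higher in all 3 knockdown libraries began at 21730001, 21760001, 22047001, 22051001, 23577001 and 23690001, and all were shoulders of dense stretches. The bin at 21730001 had 31 tags with shSpt4, 38 with shSpt5, 39 with shNelfE and 15 with shControl. Its ratios were 2.48 (1.30 to 4.93), 2.58 (1.38 to 5.04) and 2.81 (1.51 to 5.48). The bin at 21760001 had 43, 65, 47 and 25 tags in the same order, and its ratios were 2.06 (1.23 to 3.52), 2.64 (1.64 to 4.38) and 2.03 (1.22 to 3.44). In both, every knockdown library lay above the control.

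The longest run of the window, 5 bins from 22047001 to 22052000, held a further pair at its ends. The bin at 22051001 had 52, 68, 58 and 30 tags, with ratios of 2.08 (1.30 to 3.37), 2.31 (1.48 to 3.67) and 2.09 (1.32 to 3.36). The bin at 22047001 had 29, 28, 27 and 9. Between them lay the top at 22048001, with 186, 178, 223 and 189 tags and ratios of 1.18 (0.957 to 1.45), 0.958 (0.776 to 1.18) and 1.27 (1.04 to 1.55). Next to the top, the bin at 22049001 had 32, 59, 59 and 32 tags, at 1.20 (0.710 to 2.02), 1.88 (1.20 to 2.98) and 1.99 (1.27 to 3.16). The remaining shoulder, 22050001, had 56, 54, 45 and 57 tags. Its ratios were 1.18 (0.799 to 1.73), 0.964 (0.652 to 1.42) and 0.852 (0.563 to 1.28), and all intervals held 1. The run was thus above the control at both ends in every knockdown library and at 22049001 in shSpt5 and shNelfE. At 22050001 no library differed beyond counting error. At its top only shNelfE differed beyond counting error. At 23577001 the tags were 7, 16, 22 and 1, and at 23690001 they were 24, 32, 27 and 8. With 1 tag in the control, the ratio of 23.7 in shNelfE at 23577001 has an interval from 3.84 to 980. That bin held 46 tags in all and reached the threshold through the knockdown libraries, in which it was then called higher.

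Further bins with high ratios lay in the longest dense stretch. At 23550001, a top bin, shSpt4 had 44 tags, shSpt5 61, shNelfE 19 and shControl 24. The ratio was 2.20 (1.31 to 3.78) for shSpt4 and 2.59 (1.59 to 4.34) for shSpt5, and 0.854 (0.442 to 1.63) for shNelfE, and shNelfE stood at 0.389 (0.215 to 0.680) of shSpt4. At 23582001 shSpt5 was highest, with 41 tags against 17 for shSpt4, 25 for shNelfE and 14 for shControl, and a ratio of 2.98 (1.59 to 5.92). It stood at 2.05 (1.14 to 3.85) of shSpt4 there and at 1.55 (0.918 to 2.65) of shNelfE, whose interval holds 1. The bin at 23579001 had 64, 90, 66 and 36 tags and ratios of 2.13 (1.39 to 3.30), 2.54 (1.71 to 3.85) and 1.98 (1.30 to 3.06). At that bin the intervals between the knockdown libraries all held 1.

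The lowest ratios among bins with at least 50 tags in a pair came from few places. The 2 bins called lower, both in shSpt5, were the adjacent pair at 21187001 and 21188001, outside the dense stretches. The first had 60 tags for shSpt4, 39 for shSpt5, 63 for shNelfE and 110 for shControl, and its ratios were 0.653 (0.469 to 0.903), 0.361 (0.244 to 0.524) and 0.618 (0.446 to 0.850). The second had 30, 23, 40 and 50 and a ratio of 0.468 (0.273 to 0.781) in shSpt5. All 3 knockdown libraries were below the control in both bins. Within the dense stretches the lowest was 21788001, with 41, 40, 45 and 77 tags and ratios of 0.638 (0.426 to 0.943), 0.528 (0.351 to 0.784) and 0.631 (0.427 to 0.923). In shNelfE the bin at 23551001 was lowest, at 0.607 (0.364 to 0.992) with 27 tags against 48.

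Among the 10 bins with most tags, the 3 libraries took different sides of the control. The densest, 23746001, had 345 tags for shSpt4, 409 for shSpt5, 423 for shNelfE and 464 for shControl, and its ratios of 0.890 (0.772 to 1.03), 0.897 (0.783 to 1.03) and 0.984 (0.860 to 1.12) held 1. At 21787001 the normalised tags were 89.2, 100.4, 101.1 and 112.3, and shSpt4 was lower at 0.794 (0.671 to 0.939). At 23563001 the tags were 255, 330, 276 and 272, and shSpt5 was higher at 1.23 (1.05 to 1.45). The 10 bins thus had no common direction. The bin at 23629001 had 233, 289, 208 and 193 tags and was higher for shSpt4, at 1.45 (1.19 to 1.76), and for shSpt5, at 1.52 (1.27 to 1.84). In shNelfE the bins at 23771001 (347 tags against 279) and 23747001 (228 against 138) stood at 1.34 (1.14 to 1.58) and 1.78 (1.44 to 2.22). The ratios of the bins at 23562001, 22048001, 23589001 and 22043001 ran from 0.849 to 1.35.

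The bins differed from each other by more than counting error. The SD of the log2 ratio over the 86 bins was 0.58 for shSpt4, 0.82 for shSpt5 and 0.75 for shNelfE, where counting error of these tags gives 0.40, 0.39 and 0.40. The bins elsewhere had 0.65, 0.81 and 0.53, against 0.47, 0.50 and 0.45 from counting. The excess over counting was larger in the window than elsewhere in shSpt5 and shNelfE, and the difference was not tested. The SDs include bins with few control tags, such as 23577001 with 1, and their part in the excess was not separated.

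The ratio to the control rose from the tops of the runs outward. In shSpt4 tops stood at 1.09 (1.04 to 1.14), shoulders at 1.19 (1.12 to 1.27) and the 82 bins just outside the runs at 1.23 (1.01 to 1.49). In shSpt5 they stood at 1.02 (0.980 to 1.07), 1.12 (1.05 to 1.19) and 1.43 (1.19 to 1.71), and in shNelfE at 1.09 (1.05 to 1.14), 1.15 (1.08 to 1.23) and 1.23 (1.02 to 1.49). Scaled by the local background, tops stood at 0.902, 0.786 and 0.962. The intervals of tops and adjoining bins are apart for shSpt5, and they overlap for shSpt4 and shNelfE. Elsewhere the ratio rose too, from 0.595 at tops to 0.840 in adjoining bins for shSpt5, from 0.819 to 0.910 for shSpt4 and from 0.757 to 0.912 for shNelfE.

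At finer scale, tags were counted by distance from the summit, the point of highest pooled tags in each of the 43 runs. Within 150 bp of the summit the ratio to the control was 0.983 (0.927 to 1.04) for shSpt4, 0.832 (0.785 to 0.883) for shSpt5 and 0.946 (0.893 to 1.00) for shNelfE. At 500 to 1000 bp it was 1.33 (1.22 to 1.44), 1.47 (1.36 to 1.59) and 1.42 (1.31 to 1.53). At 2000 to 3000 bp it was back near the control, at 1.06, 1.08 and 0.998. Scaled by all kept tags, the summits themselves were thus at or below the control and the sides above it. Which side of the control each lies on depends on the scaling, and the rise from summit to sides does not. In the crowded stretches the sides of 1 summit can hold part of a neighbouring peak.

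Dividing the ratio at 500 to 1000 bp by the ratio within 150 bp gives a measure of broadening that no scaling of the libraries can change. It was 1.35 (1.22 to 1.49) for shSpt4, 1.77 (1.60 to 1.95) for shSpt5 and 1.50 (1.36 to 1.65) for shNelfE, against 1.09, 1.22 and 1.12 around 11265 summits elsewhere. The 30 runs of the dense stretches stood at 1.36, 1.77 and 1.51 and the 13 other runs at 1.03 (0.697 to 1.52), 1.26 (0.859 to 1.85) and 1.10 (0.748 to 1.61), each holding 1. Counted by run, 65.1, 76.7 and 62.8% of the window's runs were above 1, against 59.4, 66.7 and 60.5% elsewhere. The size of the value depended on where the summit was placed. With summits from the 2 libraries outside each pair, which are both knockdown libraries, the values were 1.12 (1.01 to 1.24), 1.49 (1.35 to 1.64) and 1.16 (1.05 to 1.29). Elsewhere they were 1.07, 1.22 and 1.11. The shSpt5 value thus differed from the rest of the genome beyond counting error under both placements, and shSpt4 and shNelfE did so only with the pooled summits. These intervals pool the tags of all runs and leave out the spread between runs.

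**Figure D3:**
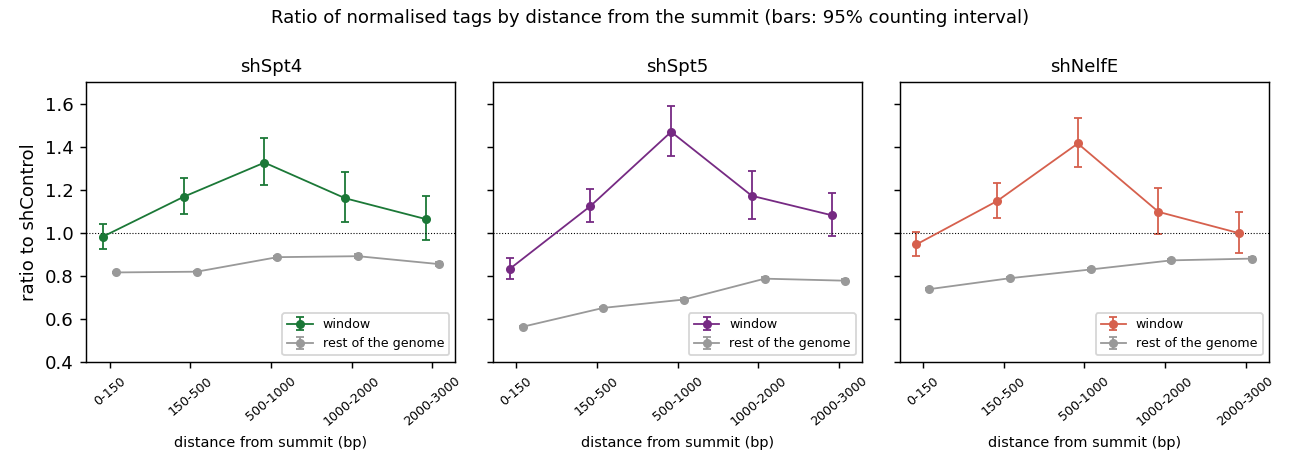
Ratio of normalised tags to shControl (vertical) by distance from the pooled summit in bp (horizontal), for the 43 runs of the window in colour and the 11265 runs elsewhere in grey, with bars for the 95% counting interval. In the window the ratio was highest at 500 to 1000 bp in each knockdown library and lay above the values elsewhere at every distance.

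Summit positions were compared between libraries. In the 32 runs with at least 30 tags in every library, the summit of shSpt5 lay more than 150 bp from that of the control in 13 runs (40.6%), and those of shSpt4 and shNelfE in 9 each (28.1%). Elsewhere, in 3896 runs, the shares were 24.5, 18.6 and 18.1%. Median distances went the same way for shSpt5 and the other way for shSpt4 and shNelfE. They were 18 bp for shSpt4, 53 bp for shSpt5 and 9 bp for shNelfE in the window, against 32, 41.5 and 34 bp elsewhere. Among the knockdown libraries the summits of shSpt5 lay that far from those of shSpt4 in 8 runs (25%, against 22.2% elsewhere) and from those of shNelfE in 10 (31.2%, against 25.1%). Between shNelfE and shSpt4 they did so in 3 (9.38%, against 20.02%). The counts are small, and their differences were not tested.

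Comparisons among the knockdown libraries do not involve the control or its flow cell. Over the 86 bins shSpt5 stood at 0.939 (0.906 to 0.974) of shSpt4 and at 0.948 (0.915 to 0.982) of shNelfE, and shNelfE at 0.991 (0.955 to 1.03) of shSpt4. Scaled by the median bin of the genome, shSpt5 stood at 1.27 of shSpt4 and 1.21 of shNelfE. Elsewhere shSpt5 stood at 0.734 of shSpt4 and 0.794 of shNelfE, and shNelfE at 0.925 of shSpt4. The deficit of shSpt5 seen elsewhere was therefore smaller at the histone cluster in comparisons within a flow cell as well. Of the 86 bins, shSpt5 was lower than shSpt4 in 2 and higher in 1, against 14.4 and 1.25% elsewhere. It was lower than shNelfE in 0 and higher in 2, against 13.9 and 1.67%. Between shNelfE and shSpt4 the counts were 2 lower and 2 higher, against 3.83 and 3.46%. In the 14 peak bins outside the dense stretches shSpt5 stood at 0.751 (0.647 to 0.872) of shSpt4, an interval that holds the 0.734 found elsewhere.

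Reads with 2 places in the genome formed a second layer of signal at the cluster. The deposited files keep a second category of reads, and its even line counts and the alignment options match reads with 2 hits. Under the option -m 2, reads with more than 2 hits are not reported, so any such signal is in neither category. The window held 1.83% of all second-category positions for shSpt4, 1.67% for shSpt5, 1.87% for shNelfE and 1.72% for shControl, against 0.267 to 0.307% of the first-category tags. Of the 72 dense peak bins 56 (77.8%) held second-category lines, 9034 in all, and 0 of the other 14 peak bins held any. Of the 2914 background bins 959 (32.9%) held such lines, 10554 in all, which is more lines than in the dense peak bins. Most of the lines in the window (79.9% of 19588) lay in 23 blocks of at least 100 lines. For 12 blocks, at least 75% of the lines had a counterpart at the matching offset in 1 other block and the reverse, and 8 blocks overlapped no peak bin.

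The largest of these was a mirrored pair from 21816035 to 21842800, over 26.8 kb, in which the blocks on the left recur on the right on the opposite strand in reverse order. The outer blocks matched in 100% of their 793 lines and the inner block on the left in 90.3% of its 2123. The stretch held 7358 second-category lines, 3625 on the left and 3733 on the right, and 158 first-category tags. The only peak bin in it, 21839001, had 55 first-category tags and 1582 second-category lines. The Pol II signal of this stretch is therefore nearly absent from the 86 peak bins, and which copy it came from cannot be told. Counting each read once, on the left side, its ratio to the control was 1.17 (1.04 to 1.30) for shSpt4, 1.03 (0.921 to 1.15) for shSpt5 and 1.32 (1.19 to 1.47) for shNelfE.

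**Figure D4:**
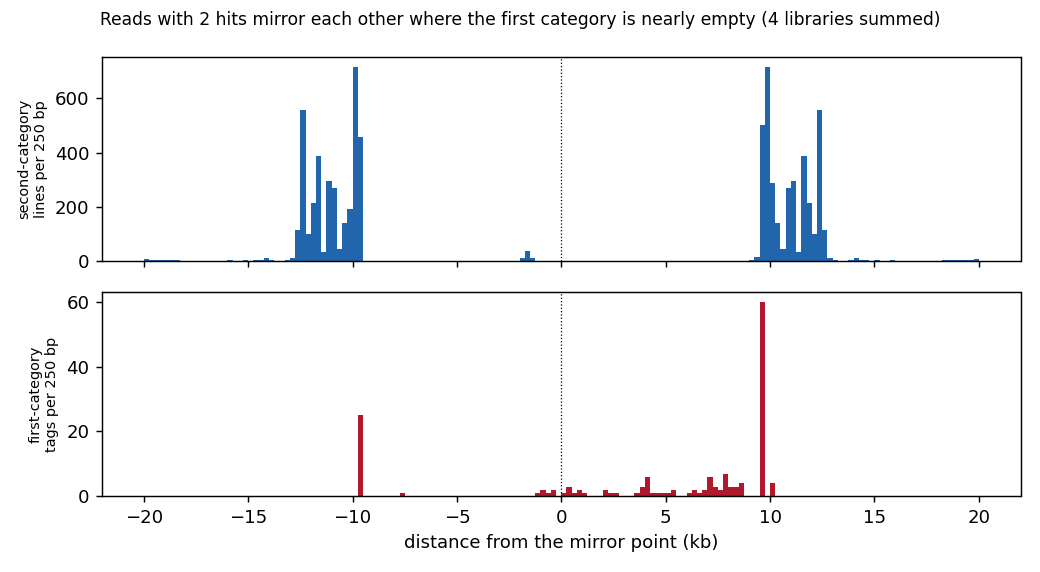
Second-category lines (upper) and first-category tags (lower) per 250 bp, summed over the 4 libraries, by distance in kb from the centre of the mirrored stretch. The upper bars on the left mirror those on the right, while the first category holds 158 tags in the whole stretch against 7358 lines of the second.

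Smaller duplicated pairs lay at 21742153 to 21742839 with 21757652 to 21758341 on the opposite strand, at 23552303 to 23553679 with 23568056 to 23569800 on the opposite strand, and at 23562652 to 23563252 with 23746408 to 23746768 on the same strand. The last pair falls in 3 of the bins with most tags of the window, and its reads are not among those tags. The bin at 23569001 had 281 first-category tags and 1166 second-category lines, and its ratio in shSpt5 was 0.599 (0.418 to 0.850) without the second category and 0.999 with it. With the second category added, the ratios over the 86 bins were 1.10 (1.07 to 1.14) for shSpt4, 1.02 (0.992 to 1.06) for shSpt5 and 1.08 (1.05 to 1.12) for shNelfE. The shSpt5 interval then held 1. A read with both places in peak bins is counted at each, so these intervals are too narrow.

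Keeping 1 tag per position and strand allows at most 2000 tags per bin and library. The densest bin filled 17.2, 20.4, 21.1 and 23.2% of these positions in shSpt4, shSpt5, shNelfE and shControl. Repeated positions made up 17.0, 25.9, 21.0 and 23.1% of the reads in peak bins, and 6.80, 17.1, 8.90 and 7.26% in the local background. In the peak bins the removed share was larger in the control than in shSpt4 and shNelfE and smaller than in shSpt5. With all reads kept the ratios over the 86 bins were lower in each knockdown library, at 1.05, 0.991 and 1.07.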

How the data were processed

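The authors deposited signed read positions without normalization, where the sign is the strand, in 2 categories that the headers do not explain. Bowtie aligned the reads to mm8 (-n 2, -l 36, -e 70, -k 2, -m 2), per the file headers and, for the build, the submitters' processing notes. The sources used here name no Bowtie version. Whether positions start at 0 or at 1, and whether duplicates were removed, is not stated. The deposited first-category reads still held repeated positions, from 8.13% for shSpt4 to 17.7% for shSpt5. The whole cell extract library was not used here.

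First-category tags were reduced to 1 per position and strand, moved 41 bp toward the fragment centre and counted in 1 kb bins (Python 3.11.15, NumPy 2.4.6, SciPy 1.17.1, Matplotlib 3.10.9). Ratios of tags per 1000000 kept tags carry exact Clopper-Pearson intervals, the broadening measure a Woolf interval, and log2 ratios of single bins a pseudocount of 0.5. Ratio calls were tested on simulated data. The simulated tags carried counting error only, so this says nothing of the calls under the wider spread of the real bins. PCR copies are not independent molecules, a ratio compares 2 libraries and not conditions, and no p-value was computed. Named bins were the 10 with most tags, the 3 highest and 3 lowest per knockdown library among bins with at least 50 tags in the pair, the 3 with most second-category lines, those at the threshold and the longest run. The bins at 21730001, 22047001, 23577001 and 23690001 are also named as called in every knockdown library, and 22049001 and 22050001 as lying in the longest run. The window, its members and these rules were chosen with earlier results of these data known.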

Additional observations from a re-analysis of the deposited data

Results flagged for a closer look

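The second category of reads, which the ratios over the peak bins leave out, held more signal in the window than in the control library for shSpt4, at 1.09 (95% interval 1.04 to 1.15, 3304 positions against 3616, scaled by kept tags), and for shNelfE, at 1.12 (1.07 to 1.18, 3767 positions). For shSpt5 the value was 1.02 (0.977 to 1.07, 3638 positions). Over the 86 peak bins alone the second category stood at 1.04 (0.971 to 1.12) in shSpt4, 0.983 (0.916 to 1.06) in shNelfE and 0.928 (0.864 to 0.997) in shSpt5, a count made after seeing the data. The comparisons share the control library and its scaling. A read with both places in the window is counted at each of them. The outer mirrored blocks, for example, each held 142 positions for shControl. The intervals of these second-category ratios are therefore too narrow, and that of shSpt5 over the peak bins ended at 0.997.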

How the results depend on the processing

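Scaling decided the direction against the control. For shSpt4, shSpt5 and shNelfE in this order, the ratio over the peak bins was 0.930, 0.810 and 0.979 scaled by the local background, 0.879, 0.717 and 0.899 by 1 Mb windows without peaks, 1.38, 1.76 and 1.45 by the median bin of the genome, and 1.05, 0.991 and 1.07 with all tags kept. By the local background, 1 Mb windows and median bin, shSpt5 stood at 0.870, 0.816 and 1.27 of shSpt4 and at 0.827, 0.798 and 1.21 of shNelfE. By the local background and the median bin, shNelfE stood at 1.05 and 1.05 of shSpt4. Tops stood at 0.902 and 0.852 in shSpt4, at 0.786 and 0.696 in shSpt5 and at 0.962 and 0.883 in shNelfE by the local background and 1 Mb windows, and shoulders at 0.988 and 0.933 in shSpt4 and at 0.858 and 0.760 in shSpt5. By 1 Mb windows, shoulders in shNelfE stood at 0.931 and adjoining bins at 0.960, 0.969 and 0.997. Bins called lower numbered 1, 8 and 1 by the local background, 2, 15 and 3 by 1 Mb windows, 1, 5 and 1 with all tags kept, 0 in shSpt5 by the median bin, and 2 in shNelfE with tags not moved or bins moved by 500 bp. Bins called higher numbered 3 in shSpt4 and 5 in shNelfE by the local background, 2, 5 and 5 by 1 Mb windows, 30 in shSpt5 and 18 in shNelfE by the median bin, 7 in shSpt4 with bins moved by 500 bp and 5 in shNelfE at 60 or more tags. With summits from the other libraries the broadening was 1.12, 1.49 and 1.16. For the call counts under other settings, no shares of the bins elsewhere are given, so those counts are not set against the genome. The causes of these shifts were not tested. For the ratios over the peak bins, other thresholds (60 and 25 tags), unmoved tags, moved bins, leaving out the densest bin, taking off the local background, adding the second category and choosing bins in the other libraries moved no value past the counting interval. With the second category added, however, the interval of shSpt5 to the control held 1. Alternatives for the higher calls, tops, shoulders, adjoining bins, broadening, single bins, tag classes and the bins outside the dense stretches, and the choice of bins in the other libraries, were chosen after seeing the data. No paired analysis was possible because each group held 1 library. Depth limits single bins, as the interval held 1 for most of them.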
